A study of Mus musculus with 6 samples.

Results

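The genes described here are 10 markers of alternatively activated macrophages and of macrophages that live in tissues or in the peritoneal cavity. They are *Mrc1*, *Cd163*, *Clec10a*, *Retnla*, *Chil3*, *Ccl24*, *Folr2*, *Lyve1*, *Timd4* and *Gata6*. They were chosen by name and not by a limit on their values, but with earlier results of these data known. All 10 were among the 20076 genes with a value in each tumor and among the 19667 genes that passed the filter on low values. RNA was taken from 3 primary tumors grown in wild-type (WT) mice and 3 grown in *Tgm2* knockout mice, all young adults. The tumors were collected 6 weeks after ID8 *Trp53*-/- *Brca1*-/- cells were injected under the bursa of both ovaries. ID8 is an ovarian cancer line of C57BL/6 mice, the strain of the WT hosts. The study names C57BL/6 before WT and knockout mice together, and does not state the background of the knockout hosts separately. Only the host lacks *Tgm2*, which encodes tissue transglutaminase, while the cancer cells and their losses of *Trp53* and *Brca1* were the same in both groups. Although the labels name cancer cells as the cell type, the RNA was that of whole tumors, so stroma, blood cells and neighbouring tissue contribute to every value.

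The comparison asks how the tumors differ when the host lacks *Tgm2*. For *Tgm2* itself, normalized counts of 14978, 12155 and 13180 were measured in the WT tumors (1, 2 and 3 in turn, as in all series of values here) against 5853, 6071 and 8157 in the knockout tumors. All 3 knockout tumors lay under all 3 WT tumors, in the direction of the labels, and the level that remained can come from the injected cells. Its log2 fold change of -1.02 (standard error 0.22) was not past adjustment across the table (limma adjusted p = 0.391).

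A normalized count is an estimated number of reads per gene, scaled for the depth of the library. Normalized counts summed to between 32316613 and 37717165 in the 6 tumors, and the steps between low values correspond to 33.3M to 37.1M reads. One read was worth between 0.939 and 1.09 normalized counts, so a value of 2 rests on about 2 reads. Spearman correlations between tumors across genes, which are not independent replicates, were 0.932 to 0.974, and those of WT tumor 3 were the lowest, 0.932 to 0.954. Fold changes are given as the knockout over the WT mean on the log2(value + 1) scale, on which the change of a weakly expressed gene appears smaller than it is, with standard errors and p-values from limma fitted to all tested genes. The titles name a mouse for each tumor but do not say otherwise that the tumors of a group come from separate animals, so p-values measure the spread between these tumors.

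Macrophages in healthy tissue are long-lived cells, many of them seeded before birth, while others arise from blood monocytes. The cytokines IL-4 and IL-13 act through the receptor chain IL4RA and the transcription factor STAT6 and turn on a program called alternative activation, which includes lectins and scavenger receptors that take up ligands as well as secreted proteins and chemokines. Resident macrophages carry receptors such as LYVE1, FOLR2 and TIM4, and the large macrophages of the peritoneal cavity depend on the transcription factor GATA6. In ovarian tumors, macrophages of both origins are found in the tumor and in the peritoneal fluid.

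At the adjusted limits (limma adjusted p of 0.05, log2 fold change of 1 in either direction), 20 of 19667 genes were higher in knockout tumors (0.102%) and 0 were lower. None of the 10 macrophage genes was among them. At the unadjusted limits, the same fold change with a limma p of 0.05 before adjustment, 4 of the 10 were higher in knockout tumors, *Cd163*, *Retnla*, *Lyve1* and *Clec10a*, and 0 were lower, against 491 (2.5%) and 305 (1.55%) of all tested genes. With the mean level of 12 white adipocyte markers as a covariate in limma, 0 of the 10 passed these limits. Of all tested genes, 4.07% were then higher and 4.1% lower past them. The 4 genes that passed without this covariate were those in which all 3 knockout tumors exceeded all 3 WT tumors. That pattern was shown by 5.18% of all tested genes. In 0 of the 10 did all 3 knockout tumors lie under all 3 WT tumors, while 5.33% of all tested genes did so. The log2 fold change was above 0 in 9 of 10 members, against 47.3% of all tested genes, and 5 of 10 reached a log2 fold change of 1, against 6.71%. The median over the members was 1.02, against -0.03 over all tested genes. Since the members were chosen with earlier results of these data known, these shares and medians are descriptions and carry no test. The members' median was -0.26 with the white adipocyte covariate, and 0.49 to 1.23 with 1 tumor left out. In simulated data of the same size, a log2 fold change of 1 was recovered at the adjusted limits in 0% of changed genes, one of 2 in 54% and one of 4 in 86.5%. The changed genes were drawn from the better expressed ones, and noise was independent between genes. An estimate under the limit on fold change failed whatever its p.

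**Figure D1:**
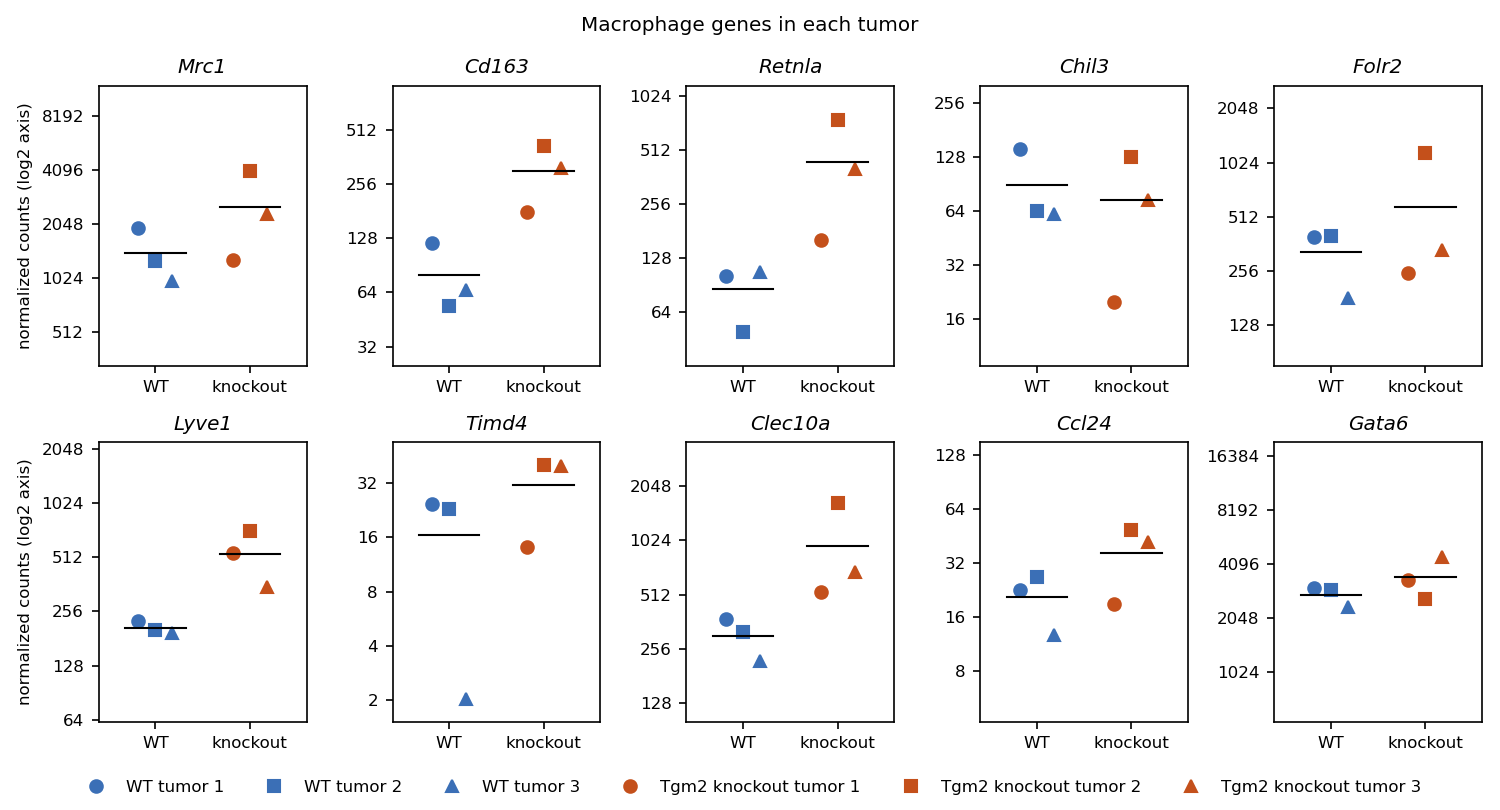
Normalized counts of the 10 macrophage genes (vertical log2 axis, each panel spanning the same number of doublings) in 3 WT tumors (blue) and 3 *Tgm2* knockout tumors (orange), where symbols mark the tumor number and horizontal lines the group mean. In *Cd163*, *Retnla*, *Lyve1* and *Clec10a* every orange symbol lies above every blue one, and knockout tumor 2 is the highest tumor in 8 of the 10 genes.

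Of the 3 uptake receptors of alternative activation among the 10 genes, *Cd163*, *Clec10a* and *Mrc1*, the first had the highest log2 fold change. *Cd163* encodes the scavenger receptor for complexes of hemoglobin and haptoglobin and spans 124304656 to 124330527 on the plus strand of chromosome 6 (GRCm38). *Cd163* was measured at 121, 53.7 and 66.1 normalized counts in WT and at 180, 420 and 315 in knockout tumors. The lowest knockout tumor, tumor 1, lay above the highest WT tumor, also tumor 1. The means were 80.4 ± 35.9 and 305 ± 120 normalized counts (SD, n = 3 tumors per group). The log2 fold change was 1.91 (standard error 0.48, 95% interval 0.81 to 3.02), a 3.77-fold higher level, with a limma adjusted p of 0.566. The two-sided exact permutation test gave p = 0.1, the smallest that 3 tumors against 3 allow.

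*Clec10a*, a C-type lectin of the galactose type, is carried by macrophages and by some dendritic cells. The gene spans 70156197 to 70170834 on the plus strand of chromosome 11 (GRCm38). The WT tumors held 373, 316 and 219 normalized counts of it, and the knockout tumors 527, 1649 and 680. The groups did not overlap, and knockout tumor 2 alone held more than the other knockout tumors together. The means were 303 ± 77.9 and 952 ± 608 (SD, n = 3 tumors per group), with a log2 fold change of 1.50 (standard error 0.44, 95% interval 0.50 to 2.50, limma adjusted p = 0.649). The log2 fold change of *Mgl2*, a near-identical neighbour of *Clec10a*, was 0.87, its groups overlapped, and the division of reads between the pair is uncertain.

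*Mrc1* encodes the mannose receptor CD206, which takes up mannose-bearing glycoproteins, and spans 14229392 to 14332057 on the plus strand of chromosome 2 (GRCm38). Its level was 1956, 1283 and 992 normalized counts in WT tumors, compared with 1298, 4050 and 2341 in knockout tumors. Knockout tumors 2 and 3 lay above every WT tumor, while knockout tumor 1 lay within the WT range. The means were 1410.5 ± 494 and 2563 ± 1389 (SD, n = 3 tumors per group), and the log2 fold change of 0.77 (standard error 0.42, 95% interval -0.19 to 1.72) had a limma adjusted p of 0.889. The difference was not larger than the spread between the tumors. With 1 tumor left out, the log2 fold change of *Mrc1* ranged from 0.36 without knockout tumor 2 to 1.18 without knockout tumor 1, and only in the latter of these 6 fits did it pass the unadjusted limits.

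Of the secreted proteins of the program, *Retnla* passed the unadjusted limits, and *Chil3* and *Ccl24* did not. *Retnla* encodes RELMα, a small secreted protein that is among the genes IL-4 induces most in mouse macrophages, and spans 48842551 to 48844461 on the plus strand of chromosome 16 (GRCm38). Normalized counts of *Retnla* came to 102, 49.6 and 107 in WT tumors, whereas knockout tumors held 162, 753 and 401. The groups did not overlap, but the knockout tumors spread over a wider range than the distance between the groups. The means were 86.0 ± 31.6 and 439 ± 298 (SD, n = 3 tumors per group). *Retnla* had the highest log2 fold change of the 10 genes, 2.15 (standard error 0.60, 95% interval 0.79 to 3.52), a 4.45-fold higher level, with a limma adjusted p of 0.649.

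The sequence before the start of *Retnla* is shown because it was the only member promoter searched that held letters bound by STAT6, the factor through which IL-4 acts, and *Cd163*, the other member with a log2 fold change near 2, is shown beside it as a promoter without them. The letters searched, on both strands, were TTCNNNNGAA, which STAT6 binds, and TTNNGCAA, which C/EBP factors bind. Promoters of 6 of the 10 members were matched in RefSeq on GRCm38.p6, in 7 windows of 300 bases each. TTCNNNNGAA was found in 6.95% and TTNNGCAA in 10.8% of 32851 RefSeq promoter windows of that length, and both in 0.84%. The stretches below are 5′ to 3′ on the plus strand and end before the annotated start of each gene. Capitals mark the matches, TTCACAAGAA at 48842464 to 48842473, which lies 87 bases before the annotated start in GENCODE, and TTGCTAAA at 48842475 to 48842482, which matches TTNNGCAA on the minus strand. The matches do not overlap.
*Retnla*, chr16:48842359-48842550: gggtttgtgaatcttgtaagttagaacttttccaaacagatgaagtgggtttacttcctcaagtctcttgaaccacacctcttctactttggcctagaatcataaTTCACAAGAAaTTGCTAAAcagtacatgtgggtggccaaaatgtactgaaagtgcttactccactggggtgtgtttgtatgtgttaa
*Cd163*, chr6:124304401-124304650: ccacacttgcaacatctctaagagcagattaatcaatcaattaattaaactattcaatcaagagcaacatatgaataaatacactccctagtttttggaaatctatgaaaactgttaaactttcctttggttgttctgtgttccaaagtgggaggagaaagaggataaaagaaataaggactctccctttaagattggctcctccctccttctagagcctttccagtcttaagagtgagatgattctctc
A match is a description of letters, and its absence says only that the letters are not in the window searched.

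*Chil3* encodes Ym1, a chitinase-like protein that macrophages and neutrophils make, and spans 106147554 to 106167564 on the minus strand of chromosome 3 (GRCm38). The tumors held 142, 64.5 and 61.9 normalized counts of *Chil3* in the WT group and 19.9, 127 and 73.8 in the knockout group. *Chil3* was the only member with a log2 fold change below 0, with its highest value in WT tumor 1 and its lowest in knockout tumor 1. Its log2 fold change was -0.52 (standard error 0.74, 95% interval -2.21 to 1.17, limma adjusted p = 0.935) and turned to 0.23 without knockout tumor 1. *Chil3* has a near-identical paralog, *Chil4*, which was not analysed here, so the assignment of its reads is uncertain.

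*Ccl24* encodes eotaxin-2, a chemokine that attracts eosinophils, and spans 135569937 to 135573049 on the minus strand of chromosome 5 (GRCm38). Its normalized counts were low, with 22.5, 26.8 and 12.7 in the WT group and 18.8, 49.0 and 41.7 in the knockout group. Knockout tumors 2 and 3 lay above all WT tumors and knockout tumor 1 among them. The log2 fold change was 0.74 (standard error 0.65, 95% interval -0.73 to 2.22, limma adjusted p = 0.902), which is within the spread between tumors, and ranged from 0.45 without WT tumor 3 to 1.15 without knockout tumor 1 when 1 tumor was left out.

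Among the receptors of resident macrophages, *Lyve1* alone passed the unadjusted limits. It encodes a receptor for hyaluronan that is found on perivascular macrophages and on lymphatic endothelium, and spans 110850607 to 110863239 on the minus strand of chromosome 7 (GRCm38). In WT tumors *Lyve1* stood at 226, 202 and 193 normalized counts, and in knockout tumors at 540, 719 and 352. The groups were well apart, and, unlike in the other 3 genes without overlap, knockout tumor 3 and not tumor 1 was the lowest of its group. The means were 207 ± 16.9 and 537 ± 183 (SD, n = 3 tumors per group), with a log2 fold change of 1.31 (standard error 0.33, 95% interval 0.56 to 2.07), a 2.49-fold higher level. The adjusted p was 0.566 from limma. The 8 markers of lymphatic endothelium had a median log2 fold change of 0.02, with 4 above and 4 below 0, and 0 of 8 were past the unadjusted limits. With the mean of the 12 white adipocyte markers as a covariate, that median was 1.19 and *Lyve1* was at 1.06, and without knockout tumor 1 the median was -0.16. Summed, they came to 28890, 22199 and 17926 normalized counts in the WT and 23183, 20486 and 25310 in the knockout group, with *Pdpn* the most abundant. The values of *Prox1*, the factor that defines this endothelium, were 48.3, 51.1 and 245 in WT and 122, 36.3 and 31.1 in knockout tumors. *Pdpn*, *Flt4* and *Nrp2* were the 3 most abundant of the 8, and the extremes were *Reln* at 0.45 and *Prox1* at -0.70 (log2 fold changes). The part of lymphatic endothelium in the level of *Lyve1* was not tested.

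*Folr2* encodes the folate receptor beta of resident macrophages and spans 101839988 to 101857194 on the minus strand of chromosome 7 (GRCm38). *Folr2* was measured at 393, 402 and 180 normalized counts in WT and at 248, 1153 and 334 in knockout tumors. Only knockout tumor 2 lay above the WT range, and the log2 fold change of 0.58 (standard error 0.59, 95% interval -0.77 to 1.93, limma adjusted p = 0.909) was -0.085 without that tumor. *Timd4* encodes TIM4, which binds phosphatidylserine on dying cells, and spans 46810800 to 46844332 on the plus strand of chromosome 11 (GRCm38). Low levels were found in both groups, with 24.6, 22.9 and 2.03 normalized counts in WT and 14.2, 40.2 and 39.9 in knockout tumors. The value in WT tumor 3 rests on about 2 reads. The log2 fold change of *Timd4* was 1.26 (standard error 0.96, 95% interval -0.93 to 3.46, limma adjusted p = 0.896) with WT tumor 3 and 0.25 without it, and the groups overlapped.

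*Gata6* encodes the transcription factor on which large peritoneal macrophages depend, and granulosa cells, theca cells and mesothelium also express it. The gene spans 11052064 to 11085635 on the plus strand of chromosome 18 (GRCm38). Normalized counts of *Gata6* were 3009, 2917 and 2347 in the WT group, as against 3320, 2605 and 4470 in the knockout group. *Gata6* varied least of the 10 genes, with the highest tumor at 1.90 times the lowest, and the groups overlapped. Its log2 fold change was 0.30 (standard error 0.24, 95% interval -0.24 to 0.85, limma adjusted p = 0.898), with 0.10 without knockout tumor 3 and 0.49 without knockout tumor 2 as the extremes when 1 tumor was left out.

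**Figure D2:**
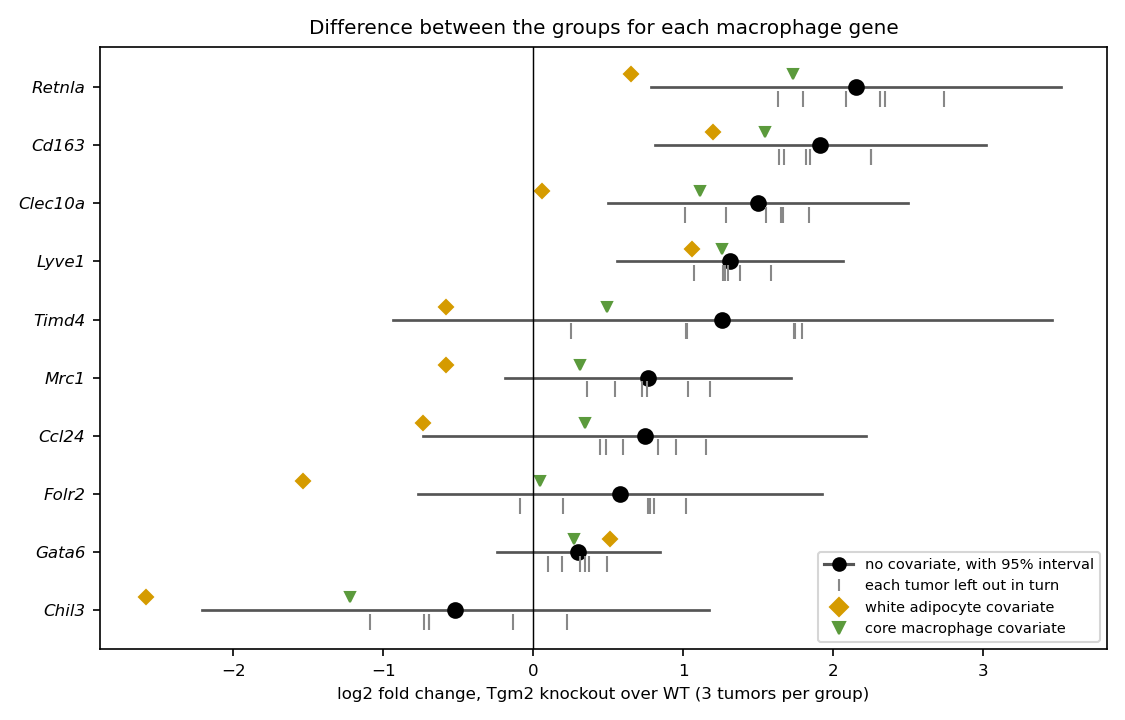
Log2 fold change of *Tgm2* knockout over WT tumors (horizontal axis) for each of the 10 genes, as black points with 95% intervals from limma, with grey ticks for the fits that each left out 1 tumor and with colored symbols for fits with a marker list as covariate. The intervals of *Retnla*, *Cd163*, *Clec10a* and *Lyve1* lie above 0, and with the white adipocyte covariate *Clec10a* falls to 0.06 while *Mrc1*, *Timd4*, *Ccl24*, *Folr2* and *Chil3* lie below 0.

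Macrophage RNA was present in both groups. Core macrophage genes were abundant in every tumor, with *Ctss* (cathepsin S), *C1qa* and *C1qb* (complement C1q) the 3 highest of the 12. Per kilobase of the longest coding transcript, *Gata6*, which other cells also express, had the highest mean level of the 10 genes. Over the 6 tumors it held 962 normalized counts per kilobase. *Retnla* followed with 438, *Folr2* with 375, *Mrc1* with 370 and *Clec10a* with 269, then *Lyve1* with 129, *Chil3* with 52.9, *Cd163* with 43.4, *Ccl24* with 22.1 and *Timd4* with 11.0, all in normalized counts per kilobase. The order of neighbours held in 6 of 6 tumors for *Mrc1* over *Clec10a*, *Clec10a* over *Lyve1* and *Ccl24* over *Timd4*. It held in 5 of 6 for *Gata6* over *Retnla*, *Lyve1* over *Chil3* and *Cd163* over *Ccl24*, and in 4 of 6 for *Retnla* over *Folr2*. It held in 2 of 6 tumors for *Folr2* over *Mrc1* and in 3 of 6 for *Chil3* over *Cd163*, so these neighbours could not be ranked. *Retnla* stood behind *Gata6*, *Folr2* and *Mrc1* in WT tumors and behind *Gata6* alone in knockout tumors. *Cd163* stood behind *Chil3* in WT tumors and ahead of it in knockout tumors. Both orders are by mean level per kilobase of the longest coding transcript. Per kilobase of all exons joined, the mean of *Gata6* over the 6 tumors was 478 instead of 962, while that of *Retnla* was unchanged at 438. By that length *Retnla* stood ahead of *Gata6* in knockout tumors.

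*Gata6* was set beside genes of large peritoneal macrophages, of mesothelium and ovarian surface, and of granulosa and theca cells. The injected cancer cells had no list of their own. Of 14 further genes of large peritoneal macrophages, 0 passed the unadjusted limits in either direction, 7 had a log2 fold change above 0 and 7 below 0, and the median was 0.01, or -0.14 without knockout tumor 2 and 0.16 with the white adipocyte covariate. The 3 most abundant of them, *Itga6*, *Cd9* and *Thbs1*, are also made by epithelial and stromal cells. *Thbs1* had the highest log2 fold change, 0.57, and *Naip1* the lowest, -1.45, where WT tumor 3 held 827 normalized counts and the other tumors 9.59 to 82.0. Of the 185 listed genes compared with it, *Irs2* (an adaptor of IL-4 and insulin receptors) and *Wt1* (a transcription factor of mesothelium) lay nearest to *Gata6*, with root mean square differences of 0.13 and 0.14 on the log2 scale over 6 tumors after centring, against a spread of *Gata6* about its own mean of 0.29. The 8 markers of mesothelium and ovarian surface had a median log2 fold change of 0.08, with 0 past the unadjusted limits. Of these markers *Wt1*, *Krt19* and *Upk3b* were the 3 most abundant, with *Lrrn4* highest at 0.56 and *Upk1b* lowest at -0.93. Their median was -0.15 without WT tumor 3 and 0.22 without WT tumor 2. Summed, they came to 52875, 56428 and 42283 normalized counts in the WT and 48643, 41793 and 53063 in the knockout group. Of 10 markers of granulosa and theca cells, 9 were tested and 0 passed the unadjusted limits, with a median of 0.52, *Gata4*, *Star* and *Cyp11a1* the 3 most abundant, *Amh* highest at 1.37 and *Star* lowest at -0.01. That median was 0.082 without knockout tumor 1, 1.11 without knockout tumor 3 and 1.38 with the white adipocyte covariate. Their sum was highest in knockout tumor 1, with 60206 normalized counts. There *Cyp11a1* (the first enzyme of steroid synthesis) had 22480 against 158 to 8648 in the other tumors. *Gata6* stood at 3320 in that tumor and was highest in knockout tumor 3, at 4470. The part of these cell types, or of the injected cancer cells, in the level of *Gata6* was not tested.

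Most members were highest and lowest in the same tumors. Knockout tumor 2 was the highest tumor in 8 of the 10 members, knockout tumor 3 in *Gata6* and WT tumor 1 in *Chil3*. WT tumor 3 was the lowest in 7 members, WT tumor 2 in *Cd163* and *Retnla*, and knockout tumor 1 in *Chil3*. Summed over the 12 core macrophage genes, normalized counts followed the same order at the extremes, with 85557, 59417 and 37210 in the WT and 44296, 122068 and 97794 in the knockout group. The groups overlapped in these sums. All 12 core genes had a log2 fold change above 0, from 0.05 in *Cd68* to 0.79 in *Mertk*, with a median of 0.44 and 0 of 12 past the unadjusted limits. That median was 0.11 without WT tumor 3 and also without knockout tumor 2, 0.72 without WT tumor 1, 0.86 without knockout tumor 1 and -0.85 with the white adipocyte covariate. In bulk tumors, fewer cells of a type and less RNA per cell cannot be told apart.

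The members were therefore also set against the 12 core genes within each tumor, as the log2 level of the member minus the mean log2 level of the core genes. On this relative scale *Retnla* was higher in knockout tumors by 1.72, *Cd163* by 1.49, *Clec10a* by 1.07 and *Mrc1* by 0.34, each with all 3 knockout tumors above all 3 WT tumors (exact permutation test, p = 0.1, the smallest possible). On the same scale, 1.36% of all tested genes showed this pattern, and 0 of 10 members but 3.79% of all tested genes showed the reverse. In *Mrc1* the groups barely separated, with knockout tumor 3 at -1.06 and WT tumor 3 at -1.10. For *Cd163* the relative levels were -5.15, -5.80 and -4.98 in the WT and -3.70, -3.83 and -3.95 in the knockout group. On this scale the 3 knockout tumors lay closer together than the 3 WT tumors. *Lyve1* no longer separated the groups, with a difference of 0.88 (exact permutation test, p = 0.2), with knockout tumor 3 at -3.79 and WT tumor 3 at -3.45. Differences were 0.83 for *Timd4*, 0.32 for *Ccl24*, 0.15 for *Folr2*, -0.13 for *Gata6* and -0.95 for *Chil3*, with overlapping groups in each. With 1 tumor left out, these relative differences ranged from 0.083 to 1.31 for *Timd4*, 0.15 to 0.52 for *Ccl24*, -0.24 to 0.51 for *Folr2*, -0.51 to 0.33 for *Gata6* and -1.24 to -0.60 for *Chil3*. Those of *Lyve1* ran from 0.45 without knockout tumor 1 to 1.29 without knockout tumor 3, and those of *Mrc1* from 0.21 without knockout tumor 2 to 0.46 without knockout tumor 3. The difference was above 0 in 8 of 10 members with a median of 0.59. With general leukocyte genes as the reference, all knockout tumors exceeded all WT tumors in 3 members instead of 4, against 1.45% of all tested genes, and the reverse held in 0 members, against 8.02%. The groups of *Mrc1* then overlapped, with a difference of 0.28. With the white adipocyte list as the reference, chosen after seeing the data, all knockout tumors exceeded all WT tumors in 0 of 10 members (0.219% of all tested genes), and lay under them in 5 of 10 (64.7%). The differences were then 0.20 for *Retnla*, -0.037 for *Cd163*, -0.45 for *Clec10a* and -1.18 for *Mrc1*. With the mean of the core genes as a covariate in limma, the log2 fold changes were 1.73 for *Retnla*, 1.55 for *Cd163*, 1.26 for *Lyve1* and 1.11 for *Clec10a*, and these 4 still passed the unadjusted limits as higher, as did 2.59% of all tested genes in that fit. *Chil3*, at -1.22 (95% interval -2.42 to -0.023, limma adjusted p = 0.954), then passed them as lower with 1.24% of all tested genes, and *Mrc1* was at 0.32.

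**Figure D3:**
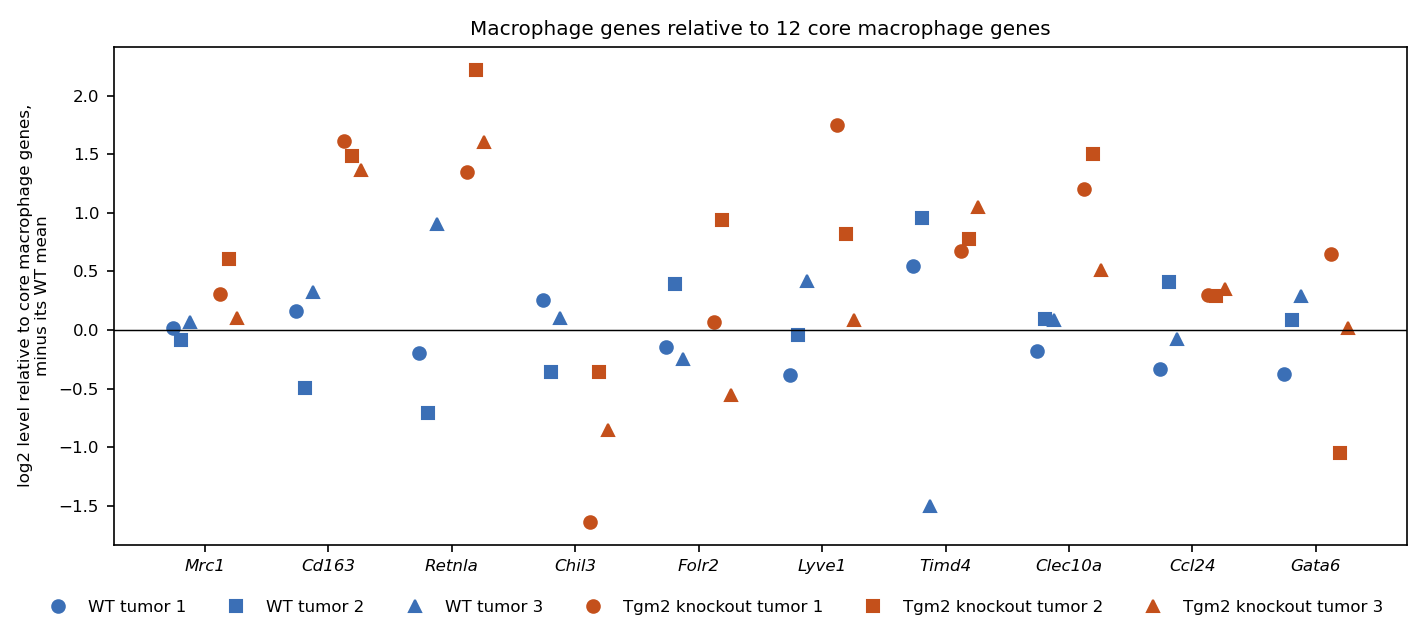
Log2 level of each of the 10 genes minus the mean log2 level of 12 core macrophage genes in the same tumor, shifted so that the WT mean of each gene is 0 (vertical axis), with 3 WT tumors in blue and 3 *Tgm2* knockout tumors in orange. Every knockout tumor lies above every WT tumor in *Mrc1*, *Cd163*, *Retnla* and *Clec10a*, and the groups overlap in the other 6 genes.

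Genes with a pattern like a member's were sought among the 185 listed genes, by the root mean square difference of centred log2 levels over the 6 tumors. For *Mrc1* these were *Cd53* (a tetraspanin of leukocytes), at 0.17, and *Ctss*, at 0.19, against a spread of *Mrc1* about its mean of 0.67. *Ccl24* also lay nearest to *Cd53*, at 0.20, followed by the chemokine receptor gene *Ccr2*, at 0.22. *Folr2* lay nearest to *Cd209f* and *Fcna*, a lectin and a ficolin of resident macrophages, at 0.20 and 0.30. *Lyve1* lay nearest to *Pparg*, at 0.14, and *Cd209a*, at 0.27. *Cd163* lay nearest to *Plin4*, a lipid droplet gene of adipocytes, at 0.23, and to *Ly6c2*, a marker of classical monocytes, at 0.25. *Retnla* lay nearest to *Ly6c2*, at 0.41, and to *Cd163*, at 0.43, *Clec10a* to *Ccl8*, at 0.27, and *Cebpa*, at 0.36. *Chil3*, nearest to *Msr1* and *Tyrobp* at 0.53 and 0.55, and *Timd4*, nearest to *Siglecf* and *Cd80* at 0.58 and 0.60, had no close match among these genes. With 6 tumors these distances describe the tumors and carry no test.

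In the pathway through which IL-4 and IL-13 act, 2 genes were higher and 0 lower past the unadjusted limits. Of 20 genes 19 were tested, 8 had a log2 fold change above 0 and 11 below 0, and the median was -0.06, or -0.11 to 0.18 with 1 tumor left out and 0.42 with the white adipocyte covariate. The 3 most abundant were the receptor chain *Il4ra* at -0.09 and the kinases *Jak1* at 0.36 and *Jak2* at -0.13 (log2 fold changes), and *Stat6* was at -0.06. *Irf4*, a transcription factor that acts in alternative activation and also in B cells and plasma cells, was highest, with 106, 35.6 and 95.6 normalized counts in the WT and 499, 310.5 and 575 in the knockout group. Its groups did not overlap, and its log2 fold change of 2.63 had a limma adjusted p of 0.264. *Pparg*, a nuclear receptor of alternative activation and of fat cells, was at 1.42, also without overlap, and *Irf4* and *Pparg* were the genes past the unadjusted limits. *Cish*, a feedback inhibitor of cytokine receptors, was lowest at -0.37.

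Of 16 further genes of alternative activation 14 were tested, with 12 log2 fold changes above 0 and 2 below, a median of 0.18, and 2 higher and 0 lower past the unadjusted limits. The most abundant were *Il1rn*, *Tgfb1* and *Cd36*. *Cd36*, a fatty acid transporter of macrophages, endothelium and fat cells, was highest at 1.96, and the chemokine gene *Ccl22*, named after its values were seen, was at 1.57, both without overlap of the groups. *Flt1*, a receptor for vascular growth factors, was lowest at -0.10.

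Of 18 further genes of resident macrophages, all tested, 16 had a log2 fold change above 0 and 2 below, with a median of 0.36. The most abundant were *Selenop* at 0.20, *Gas6* at 1.28 and *Maf* at 0.28. *Gas6*, a ligand that bridges dying cells to the receptor MERTK, had 5857, 5171 and 4371 normalized counts in the WT and 19343, 10726 and 9227 in the knockout group, without overlap. It passed the unadjusted limits together with *Igf1*, *Ccl8* and *Cd209d*, of which *Igf1* and *Cd209d* are named after their values were seen, and 0 of 18 were lower past these limits. With each of the 6 tumors left out in turn, *Gas6* and *Igf1* passed them in 5 of 6 fits and *Ccl8* in 1 of 6. No such tally is given for *Cd209d*. *Cd209b* was highest at 2.34, with 5.29, 34.3 and 2.84 normalized counts in WT and 23.8, 138 and 30.7 in knockout tumors, and *Cbr2* lowest at -0.33, where WT tumor 3 held 12541 and the other tumors 270 to 2436. Of 10 genes of the CSF1 axis, which macrophages need to survive, *Cebpa*, a transcription factor of myeloid and fat cells, alone passed the unadjusted limits, at 1.13, and did so in 4 of 6 fits without 1 tumor. The median of these 10 was 0.06, with *Csf1r* (also one of the core genes) at 0.71, *Csf1* at -0.08 and *Cebpb* at -0.06 the most abundant and *Csf2* lowest at -0.99, on 0.981 to 6.59 normalized counts. That median was 0.28 without WT tumor 1, -0.037 without knockout tumor 3 and -0.27 with the white adipocyte covariate.

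Genes of the opposite, inflammatory state of macrophages passed the unadjusted limits in both directions. Of 12 genes 6 had a log2 fold change above 0 and 6 below, with a median of 0.09, and 3 were higher and 1 lower past the unadjusted limits. The most abundant were the chemokine genes *Cxcl9* and *Cxcl10* and the costimulatory gene *Cd86*, at 2.36, -0.07 and 0.25, and *Il23a* was lowest at -1.91. The 8 monocyte genes had a median of 0.05, with *Fn1*, *Plac8* and *Ccr2* the most abundant and *Clec4e* lowest at -1.15. *Ly6c2*, the gene nearest to *Retnla*, was highest at 2.28 and the only one past the unadjusted limits. With 1 tumor left out, the list medians ranged from 0.081 to 0.47 for the further genes of alternative activation, 0.095 to 0.73 for those of resident macrophages, -0.21 to 0.48 for inflammatory and -0.20 to 0.48 for monocyte genes. With the white adipocyte covariate the same medians were -0.27, -0.97, -1.09 and -0.51.

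**Figure D4:**
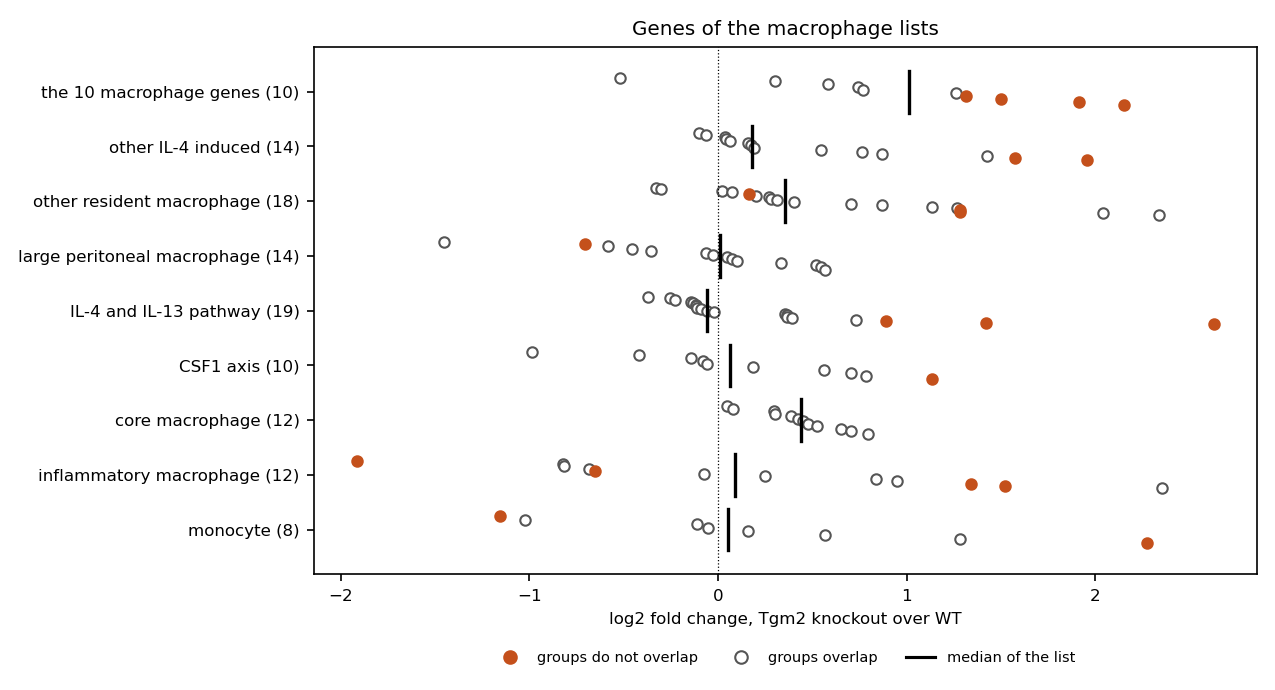
Log2 fold change of *Tgm2* knockout over WT tumors (horizontal axis) for each gene of the macrophage lists (rows, with the number of genes tested), with filled points where the groups did not overlap and black bars for the median of each list. The bar of the 10 macrophage genes is at 1.02, and the bars of the other lists lie between -0.06 and 0.44.

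Markers of other cells differed between the groups alongside the members. All 12 markers of white fat cells had log2 fold changes above 0, with a median of 1.96. Of these, 9 passed the unadjusted limits, and *Lep* (leptin), which rose by a log2 fold change of 3.74 (limma adjusted p = 0.0393), passed the adjusted ones, though in 0 of 6 fits once any 1 tumor was dropped. Summed, they came to 41071, 55316 and 34378 normalized counts in the WT and 46246, 168839 and 97746 in the knockout group, with *Lpl* the most abundant, followed by *Cfd* and *Fabp4*, and none of the 12 at 0 in any tumor. *Lpl* was also the lowest, at 0.48. The mean log2 level of the list was higher in all 3 knockout than in all 3 WT tumors and, like the members, highest in knockout tumor 2. With this mean as a covariate in limma, 0 of 10 members passed the unadjusted limits, while 4.07% of all tested genes were higher and 4.1% lower past them. The log2 fold changes were then 1.20 for *Cd163* (standard error 0.95), 1.06 for *Lyve1* (0.66), 0.65 for *Retnla* (1.07) and 0.06 for *Clec10a* (0.66), and those of *Mrc1*, *Timd4*, *Ccl24*, *Folr2* and *Chil3* were below 0. Since the covariate separated the groups, its part and that of the genotype in the members' levels cannot be told apart in these 6 tumors.

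Eosinophils, which CCL24 attracts, and dendritic cells, some of which carry CLEC10A, were also sought. Of 8 eosinophil genes 6 were tested, all with log2 fold changes above 0 and a median of 1.04, and 2 passed the unadjusted limits. These genes have low counts, and their median was 0.26 with a pseudocount of 10 and 0.56 with the white adipocyte covariate. The sums of the 6 were 171, 155 and 137 normalized counts in WT and 334, 566 and 701 in knockout tumors, with *Ear2* the most abundant, then *Prg2* and *Siglecf*, and *Ear1* at 0 in WT tumors 1 and 3. *Prg2* was highest at 3.18 and *Siglecf* lowest at 0.35, and *Epx*, which defines the cell, was not analysed here. Of 9 dendritic cell genes 8 had log2 fold changes above 0, with a median of 0.53, and 4 passed the unadjusted limits. That median was 0.44 to 0.86 with 1 tumor left out, highest without WT tumor 1. *Clec9a* was highest at 2.15 and *Zbtb46* lowest at -0.10, and *Itgax*, *Zbtb46* and *Ccr7* were the most abundant. Their sums were 4753, 3709 and 3167 normalized counts in WT and 4123, 4844 and 7012 in knockout tumors. These sums were highest in knockout tumor 3, and *Clec10a* was highest in knockout tumor 2. In both lists the mean log2 level was higher in all 3 knockout than in all 3 WT tumors (exact permutation test, p = 0.1). The 10 genes of neutrophils, which also make Ym1, had a median of -0.35 with overlapping groups and 0 past the unadjusted limits. Their median was -0.90 without knockout tumor 2, 0.32 without knockout tumor 3 and -2.75 with the white adipocyte covariate. Their sum was led by *Ltf*, with 52176 normalized counts in WT tumor 3 and 31.6 to 3967 elsewhere, *Csf3r* and *S100a9* followed, *Ngp* was highest at 2.05 and *Ltf* lowest at -2.21, and *Ly6g*, *Ngp* and *Camp* were each at 0 in at least 1 tumor. General leukocyte genes, 8 in all and led by *Laptm5*, *Lcp1* and *Cd52*, had a median of 0.48, from -0.10 in *Rac2* to 1.22 in *Cd52*, which alone passed the unadjusted limits. Their median was 0.28 without WT tumor 3, 0.77 without knockout tumor 1 and -0.41 with the white adipocyte covariate. The part of these cells in the differences of the 10 genes was not tested.

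**Figure D5:**
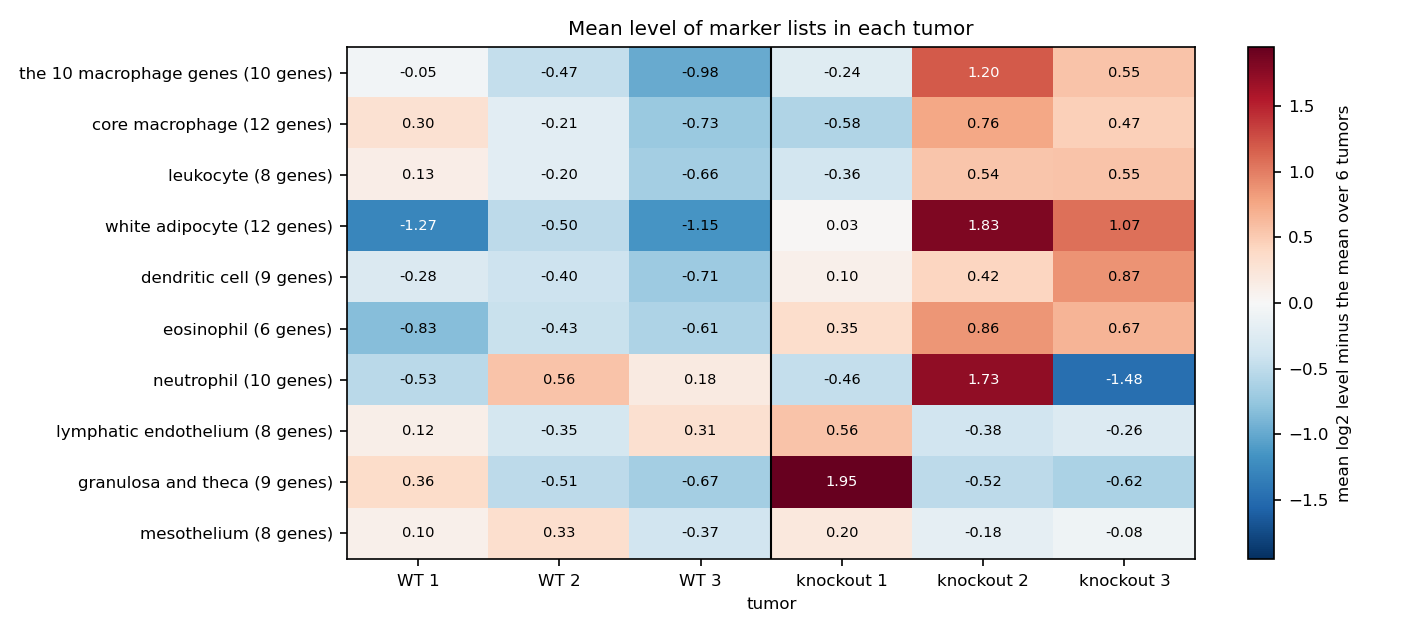
Mean log2 level of each marker list in each tumor, as the difference from its mean over the 6 tumors (color and printed number), with WT tumors on the left and *Tgm2* knockout tumors on the right of the black line. The 10 macrophage genes are highest in knockout tumor 2, at 1.20, and lowest in WT tumor 3, at -0.98, and the white adipocyte list is also highest in knockout tumor 2, at 1.83.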

How the data were processed

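RNA of 6 primary tumors was polyA-selected and sequenced as paired reads. The authors quantified transcripts with kallisto (version 0.46.2 on GRCm38 per the submitters' processing notes), summed them by gene with biomaRt annotation, left out weakly expressed genes and divided by DESeq2 size factors. Each deposited value is thus a signal, a normalized count that need not be whole. The table is named TPM, but the sums differ between tumors. Whole reads were recovered in 96.6% to 99.2% of low values of genes with 1 transcript and in 42.1% to 49.1% of those of other genes (within 0.1 read), so no count model was fitted.

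A pseudocount of 1 was added, genes with at least 1 in at least 3 tumors were kept, and limma 3.58.1 (R 4.3.3) was fitted with a variance trend, no covariate and Benjamini-Hochberg adjustment. All tests were two-sided. The tests had been planned for TPM values, and the same tests on log2 values were kept. Steps were tested on simulated data with 200 changed genes. Gene positions come from GENCODE M21, matched by symbol for 19037 genes. The members and lists were chosen with earlier results of these data known. The further genes of alternative activation are counted without 1 gene, whose result is not reported here. Of each list the 3 most abundant genes, those past the adjusted limits and those with the highest and lowest log2 fold change are named, with the 2 listed genes nearest to each member. Alternatives changed the pseudocount, filter, scaling, block, weights, variance trend and covariates, and left out each tumor. The stained sections, flow cytometry and human data of the study were not analysed here.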

Additional observations from a re-analysis of the deposited data

How the results depend on the processing

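The count of genes past the adjusted limits, 20, was 5 with the replicate number as a block, 4 without a variance trend, 0 with the white adipocyte covariate and from 2 (without WT tumor 2) to 14 (without knockout tumor 3) when 1 tumor was left out, with 8, 13, 11 and 11 without WT tumors 1 and 3 and knockout tumors 1 and 2. The number of members past them was 0 throughout. Whether the numbers shared by WT and knockout tumors pair them is not stated. Deviations of same-numbered tumors correlated at -0.20, 0.28 and -0.31, which cannot settle it with 3 tumors per group. The block changed no member's call. *Cd163*, *Retnla*, *Lyve1* and *Clec10a* passed the unadjusted limits in 16 of 17 alternatives, all but the white adipocyte covariate, which left 0 of 10, and *Mrc1* joined them without knockout tumor 1, so that leaving out 1 tumor gave 4 to 5, against 1.99% to 3.48% of all tested genes. *Chil3* passed them as lower with the core macrophage covariate alone. The range of their adjusted p over the alternatives was 0.357 to 0.924 for *Cd163*, 0.225 to 0.924 for *Retnla*, 0.391 to 0.924 for *Lyve1* and 0.405 to 0.991 for *Clec10a* (limma).

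The median log2 fold change of the members, 1.02, was -0.26 with the white adipocyte covariate, 0.42 with the core macrophage covariate, and 0.49 (without WT tumor 3) to 1.23 (without knockout tumor 1) with 1 tumor left out. The white adipocyte covariate turned *Mrc1* to -0.58, *Folr2* to -1.54, *Timd4* to -0.58 and *Ccl24* to -0.74. With 1 tumor left out, *Chil3* ranged from -1.08 (without knockout tumor 2) to 0.23 (without knockout tumor 1) and *Folr2* from -0.085 (without knockout tumor 2) to 1.02 (without knockout tumor 1). In alternatives chosen after seeing the data, every knockout tumor lay above every WT tumor in 4 to 7 members with 1 tumor left out (7 without knockout tumor 1), while 8.91% to 11.9% of all tested genes did so in place of 5.18%, and the median relative level, 0.59 against core macrophage genes, was -0.94 against the white adipocyte list. That median was 0.31 with a pseudocount of 10 and 0.32 (without WT tumor 3) to 0.69 (without WT tumor 2) with 1 tumor left out. Beyond what each setting changes by construction, the cause was not tested. Depth limits *Timd4* and *Ccl24*, which rest on 1.99 to 50.4 reads per tumor.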
